A study of Mus musculus with 6 samples.

Results

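Among the CD45+ leukocytes of the arthritic mouse synovium, 605 of 32953 cells (1.84%, Wilson 95% confidence interval 1.70% to 1.99%) carried the transcripts of primary (azurophil) granules with little or no transcript of secondary granules. They were chosen by their own counts. Elane, Mpo and Prtn3 together made up at least 0.5% of the unique molecular identifiers (UMIs, tags that each mark 1 captured RNA molecule) of the cell, and Ngp, Camp and Ltf together made up less than 1%. They are called primary granule cells here. The working name for such cells is promyelocyte-type granulocyte precursor, and the data met that name only in part. Of the 5 markers fixed for it, Elane, Mpo and Prtn3 are high through the choice of the cells. Ctsg and Ms4a3, which had no part in the choice, were also high, but 319 of the 605 cells (52.7%) held more UMIs of 3 monocyte lineage genes than of 3 neutrophil lineage genes.

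The cells came from C57BL/6 mice with antigen-induced arthritis (AIA). The animals had been immunized under the skin with methylated bovine serum albumin in complete Freund's adjuvant, and the same antigen was injected into the knee on day 21. From that day they received intraperitoneal injections of either phosphate buffered saline (PBS, the vehicle, 2 samples) or PEPITEM (4 samples), a peptide given at 300 μg and coupled to polyethylene glycol. All 6 samples therefore had arthritis, and none came from an unchallenged joint. Joints were dissected from the lower limbs and digested with enzymes, and red cells were lysed before CD45+ cells were sorted. The mice were males, bought as young adults and kept in the facility before use, and the number of animals behind each sample is not given in the sources used here. The barcodes carry a library number from 1 to 6, and nothing used here ties a number to PBS or PEPITEM. All values below are therefore pooled or given by library of unknown treatment, with no test between treatments.

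Neutrophils form through stages that are named by the granules they fill. Myeloperoxidase and the serine proteases of the azurophil granule are made first, at the promyelocyte stage, lactoferrin and the other secondary granule proteins follow at the myelocyte stage, and gelatinase granule proteins come last. The azurophil genes are switched on earlier still, in progenitors that can give rise to both neutrophils and monocytes. The transcription factor IRF8 is known to favour the monocyte and dendritic cell fates, and GFI1 and C/EBPε the neutrophil fate. These stages are known mainly from the bone marrow.

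The libraries differed in how many primary granule cells they held. The counts were 15 of 3345 cells in library 1, 75 of 5809 in library 2, 11 of 2919 in library 3, 32 of 3996 in library 4, 243 of 9345 in library 5 and 229 of 7539 in library 6. As shares these were 0.448%, 1.29%, 0.377%, 0.801%, 2.60% and 3.04%. Libraries 5 and 6 held 472 of the 605 cells, and their intervals did not overlap those of the other 4. The share of cells with secondary granule transcripts and without the primary ones ran in nearly the same order, from 7.37% in library 3 to 27.6% in library 5. These cells are called secondary granule cells, and 6648 of them (20.2% of all cells) were found. A higher share can come from more cells of this kind or from fewer cells of another, which cannot be told apart here. The intervals cover counting error only.

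**Figure D1:**
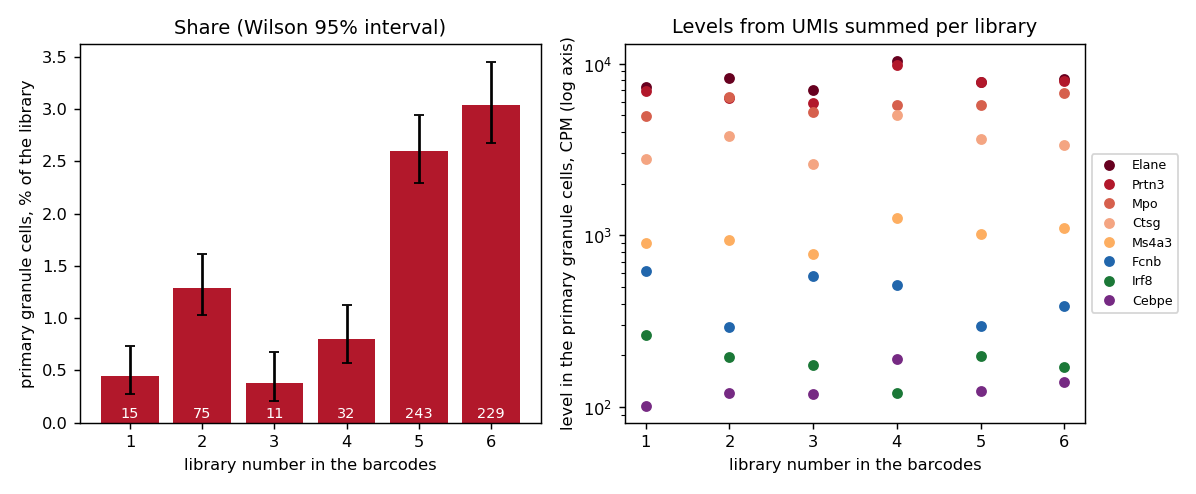
Left, share of primary granule cells in each barcode library, in percent of all its cells, with Wilson 95% intervals as bars and the number of cells inside each column. Right, level of 8 genes in the summed UMIs of these cells by library, in UMIs per 1000000 UMIs (CPM, log axis). Shares run from 0.377% in library 3 to 3.04% in library 6, while the Elane level stays between 6995 and 10326 CPM.

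The 5 marker genes lie at 4 places in the genome, given here in GRCm38 coordinates, and all are protein coding. Prtn3 (chr10:79874476-79883174, plus strand) and Elane (chr10:79886247-79888215, plus strand) are neighbours, separated by 3073 bases. Mpo is at chr11:87793581-87804413 on the plus strand, Ctsg at chr14:56099881-56102574 on the minus strand and Ms4a3 at chr19:11629496-11640851 on the minus strand. The genes next to them were far lower in the same cells. Cfd, which encodes complement factor D and begins 2638 bases after Elane, was at 0.80 CPM against 8136 CPM for Elane. Lpo, the lactoperoxidase gene 2015 bases from Mpo, was at 1.38 CPM. Mcpt8, a basophil protease gene 14608 bases from Ctsg, was at 21.5 CPM, and Ms4a2, 5777 bases from Ms4a3, was at 2.84 CPM. On the other side of Prtn3, Plppr3, which overlaps it on the opposite strand, was at 45.8 CPM against 3.49 CPM in all other cells, and Ptbp1, 9705 bases away, at 141 CPM against 60.5 CPM.

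To show the sequence before the marker genes, 3 of which chose the cells, a stretch of 70 bases before the start of each is shown, read 5′ to 3′ on the strand of the gene from RefSeq promoters (GRCm38.p6). Capitals mark GGAAGT, a sequence that Ets factors such as PU.1 can bind, and AACGG, the core of a Myb site.
Elane (chr10:79886214-79886283, plus strand): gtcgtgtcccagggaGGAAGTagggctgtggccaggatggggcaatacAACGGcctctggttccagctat
Prtn3 (chr10:79879559-79879628, plus strand): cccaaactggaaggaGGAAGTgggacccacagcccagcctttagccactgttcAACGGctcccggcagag
Mpo (chr11:87793547-87793616, plus strand): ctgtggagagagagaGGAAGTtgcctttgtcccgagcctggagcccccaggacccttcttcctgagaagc
Ctsg (chr14:56102725-56102794, minus strand): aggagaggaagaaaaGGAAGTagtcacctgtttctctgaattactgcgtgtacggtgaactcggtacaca
Ms4a3 (chr19:11640852-11640921, minus strand): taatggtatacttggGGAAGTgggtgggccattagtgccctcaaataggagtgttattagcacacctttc
GGAAGT began 83 bases before the RefSeq start of Elane, 93 before that of Prtn3, 222 before that of Mpo, 205 before that of Ctsg and 55 before that of Ms4a3. The GENCODE models of Elane, Prtn3 and Mpo quoted above begin farther upstream and overlap the stretches shown. In windows of 300 bases around 27025 RefSeq starts, searched on both strands, GGAAGT was present in 24.1% and AACGG in 17.7%, against all 5 and 2 of the 5 genes here. A further motif searched, TTGCNNAA for C/EBP factors, was present in 10.8% of all windows and in that of Ms4a3, outside the stretch shown. These matches describe letters in the sequence and not binding.

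The levels that chose the cells are given as a description. Levels are UMIs of a gene summed over the cells and divided by all their UMIs, in CPM. Since the kit counts the 3′ ends of molecules, they do not depend on transcript length. Elane, neutrophil elastase, was at 8136 CPM (exact Poisson 95% interval 8099 to 8173), and its levels by library ran from 6995 to 10326 CPM with a median of 7967 CPM. Prtn3, proteinase 3, was at 7726 CPM (5892, 7394 and 9862 in the lowest, median and highest library), and Mpo, myeloperoxidase, at 6171 CPM (4972, 5764 and 6717). The same library, 4, was highest for Elane and Prtn3, and library 3, with the fewest of these cells, was lowest for both.

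Ctsg, cathepsin G, and Ms4a3, a membrane protein of granulocyte and monocyte precursors, had not been used in the rule. Ctsg was at 3595 CPM (2602, 3491 and 5014 in the lowest, median and highest library), and Ms4a3 at 1051 CPM (778, 980 and 1264). The 605 cells held 80.4% of all Ctsg UMIs in the table, 79.4% of those of Mpo, 67.0% of those of Elane, 63.6% of those of Prtn3 and 58.6% of those of Ms4a3. After each cell was thinned to 3000 UMIs, which left 604 cells, a UMI of Ctsg was found in 98.0% of the cells and one of Ms4a3 in 74.8%. The same shares were 0.512% and 0% in T cell-type cells and 0.574% and 0.215% in B cell-type cells, which should lack these genes. Primary granule cells were deep, with a median of 36148 UMIs per cell as deposited, against 9901 in T cell-type and 5988.5 in B cell-type cells.

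The deposited table limits what can be said of the richest cells. Primary granule cells had a median of 5863 genes per cell against 2850 in all other cells, and 104 of them (17.2%) had more than 6500 genes, against 0.801% of the other cells. No cell in the table exceeded 6998 genes, since an upper limit on genes per cell had been applied before deposit. How many cells of this kind lay above that limit was not tested.

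**Figure D2:**
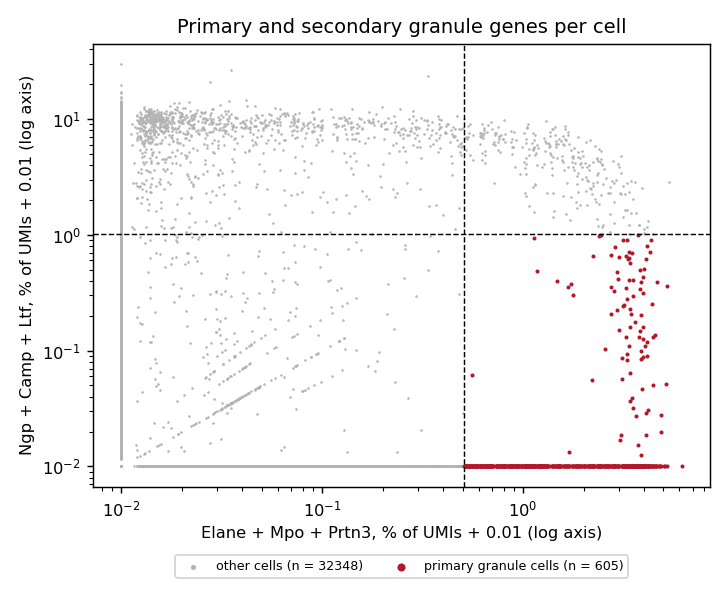
Each point is 1 of the 32953 cells, placed by the percent of its UMIs from Elane, Mpo and Prtn3 (horizontal, log axis) and from Ngp, Camp and Ltf (vertical, log axis), with a small constant added so that zeros can be drawn. Dashed lines are the thresholds of 0.5% and 1%, and the 605 primary granule cells are in red at the lower right, most of them at 0 for the secondary granule genes.

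The primary granule sum had a median of 1.95% of the UMIs of a cell, with 0.637% and 3.97% at the 10th and 90th percentiles and 6.20% at the highest. The secondary granule sum was 0 in 513 of the 605 cells. The table stored an explicit 0 for Ngp in 486 of the cells, for Camp in 456 and for S100a8 in 370, entries read as counts that the correction for ambient RNA had lowered to 0. A value of 0 for these genes is thus a corrected value in most of the cells. For Elane, Mpo and Prtn3 no such entry was found in these cells, and for Ctsg there was 1. The lower threshold cut through a continuum. The 47 cells just inside it, at 0.5% to 0.6%, had 1190 CPM of Elane, 1119 CPM of Ctsg and 344 CPM of Irf8. The 56 cells just outside it, at 0.4% to 0.5%, had 882, 1023 and 341 CPM. At the other threshold, 7 cells lay just inside, at 0.8% to 1%, and 9 just outside, at 1% to 1.2%.

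The cells past both thresholds were set beside the primary granule cells for genes other than those of the rule. Of the 866 cells past the primary threshold, 261 also reached 1% for Ngp, Camp and Ltf and were kept apart, between 7 and 107 per library. Ctsg was at 3595 CPM in primary granule cells and at 938 CPM in the cells past both thresholds, 3.83-fold higher in the former and higher in 6 of 6 libraries. Of 8222 genes at 10 CPM or more, 41.0% were higher in primary granule cells in every library and 8.33% lower. Mpo was at 6171 and 2855 CPM and Prtn3 at 7726 and 5835 CPM, each higher in 6 of 6 libraries. Elane was at 8136 and 7729 CPM, and its direction differed between libraries. Fcnb, ficolin B, ran the other way, with 361 CPM in primary granule cells and 2140 CPM in the cells past both thresholds, as did the cycling gene Mki67 with 162 and 381 CPM. Myc, a growth-promoting transcription factor, was at 83.1 CPM in primary granule cells, 8.72 CPM in the cells past both thresholds and 2.18 CPM in secondary granule cells. Myb, a factor of immature blood cells, followed the same order with 216, 76.5 and 21.3 CPM. The primary granule cells pooled here differ among themselves, as described next. In those with more neutrophil than monocyte lineage transcripts Elane was at 13169 CPM, against 7729 CPM in the cells past both thresholds. Mpo, Elane and Prtn3 belong to the rule, and these values are a description.

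Within the primary granule cells, genes of the neutrophil and of the monocyte lineage were found largely in different cells. The sum of Cebpe, Gfi1 and Fcnb (neutrophil lineage) was set against that of Irf8, Csf1r and F13a1 (monocyte lineage), genes chosen after values had been seen. The neutrophil sum was larger in 282 cells (46.6%, Wilson interval 42.7% to 50.6%), the monocyte sum in 319, and they were equal in 4. The sums were at least 5-fold apart, after adding 1 UMI to each, in 474 cells and less than 2-fold apart in 54. Both kinds of cell were present in every library. The neutrophil sum was larger in 5 of 15, 38 of 75, 4 of 11, 20 of 32, 102 of 243 and 113 of 229 cells of libraries 1 to 6, or between 33.3% and 62.5%.

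**Figure D3:**
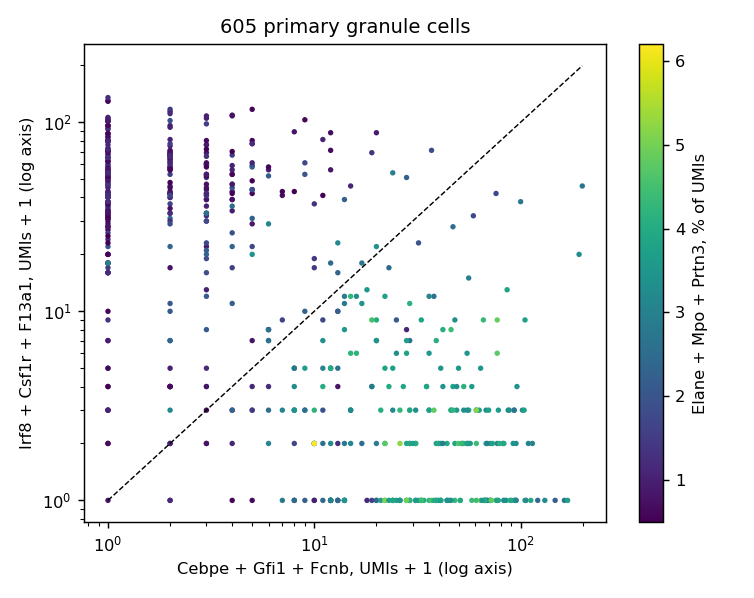
Each point is 1 of the 605 primary granule cells, placed by its UMIs of Cebpe, Gfi1 and Fcnb (horizontal) and of Irf8, Csf1r and F13a1 (vertical), both plus 1 on log axes. Colour gives Elane, Mpo and Prtn3 in percent of UMIs, and the dashed line marks equal sums. The 282 cells below the line have a median of 3.48% and the 319 above it a median of 1.02%.

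The depth of these groups of cells was close, with medians of 37018.5 UMIs where the neutrophil sum was larger and 35868 where the monocyte sum was larger. The azurophil list, which holds the 3 genes of the rule, summed to 49404 CPM in the former and 19465 CPM in the latter. Not every granule gene followed, since Ctsc and Lyz2 (below) and Gusb (98.0 and 129 CPM) were lower in the former. Elane was at 13169 CPM in cells with the larger neutrophil sum and at 3616 CPM in cells with the larger monocyte sum. Ctsg was at 5211 and 2138 CPM, Ms4a3 at 1751 and 420 CPM, Prss57, a serine protease of the same granules, at 426 and 83.7 CPM, and Nkg7, a granule membrane protein gene, at 1129 and 228 CPM. Cd63, a tetraspanin of azurophil granule membranes, was 13-fold higher with 1081 and 83.4 CPM. For Elane, Ctsg, Ms4a3, Prss57, Nkg7 and Cd63 the lowest library of the former lay above the highest library of the latter. The same held for 5.56% of 8363 genes at 10 CPM or more, while 9.63% lay wholly below. S100a8, an alarmin of maturing neutrophils and monocytes, was at 16548 and 891 CPM and did not overlap between the groups either. The correction for ambient RNA had set S100a8 to 0 in unequal shares of the cells. In subclusters with mostly larger monocyte sums (1, 3 and 5 below) these were 116 of 119, 70 of 96 and 72 of 72 cells. Where neutrophil sums were mostly larger (subclusters 2, 4, 6 and 8), the correction had done so in 0 of 101, 21 of 88, 42 of 55 and 0 of 25 cells. Its part in this difference was not tested.

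The cells with the larger monocyte sum carried further monocyte genes that had not been used to divide them. Ly86, a Toll-like receptor cofactor, was at 218 CPM in them and at 3.84 CPM in the others. Ccr2, the receptor for monocyte chemoattractant proteins, was at 198 and 12.5 CPM, Klf4, a monocyte transcription factor, at 160 and 9.27 CPM, and Ms4a6c at 530 and 23.0 CPM. Ctsc, the protease that activates elastase and cathepsin G, was at 402 CPM in these cells and 38.3 CPM in those with the larger neutrophil sum. Lyz2, lysozyme, was at 1650 and 410 CPM. For none of these genes did the libraries of the groups overlap. They did overlap for Ly6c2 (2248 and 2053 CPM), for the stem cell factor receptor gene Kit (43.8 and 68.9 CPM) and for Myc (88.4 and 74.7 CPM). For Lyz2, the table stored a corrected 0 in 12 of 119, 0 of 96 and 8 of 72 cells of subclusters 1, 3 and 5 below. In subclusters 2, 4, 6 and 8 it did so in 23 of 101, 28 of 88, 30 of 55 and 2 of 25 cells. The part of this correction in the Lyz2 difference was not tested.

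Detection was also counted cell by cell. After thinning to 3000 UMIs, 177 cells had a UMI of Irf8 and none of Cebpe, 156 had Cebpe and no Irf8, 3 had both and 268 had neither. As deposited, at the full depth, 210 cells had Irf8 alone, 280 Cebpe alone and 106 both. For Irf8 and Gfi1 the thinned counts were 174, 58 and 6, and for Cd34, a progenitor surface protein, and Fcnb they were 66, 193 and 1. By contrast, Irf8 and Csf1r, the macrophage colony-stimulating factor receptor, were found together in 47 cells, with 133 for Irf8 alone and 37 for Csf1r alone. These counts are a description, since the pairs share the depth of each cell.

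Clustering of the 605 cells alone gave 8 subclusters, numbered by size, with their leading genes given as a description. Subclusters 2, 4, 6 and 8 (101, 88, 55 and 25 cells) consisted mostly of cells with the larger neutrophil sum, which was larger in 101 of 101, 81 of 88, 44 of 55 and 23 of 25 cells. Subcluster 6 was led by Fkbp11, a chaperone of the endoplasmic reticulum, and had the most Ctsg of the 8 (6116 CPM), with 384 CPM of Myb and 92.5 CPM of Fcnb. Subcluster 4 was led by Olr1, a scavenger receptor gene, and Serpine2, with the most Gfi1 (107 CPM), 719 CPM of Fcnb and 1484 CPM of the heat shock gene Hspa1a. Subcluster 2 was led by Camp, Ngp and S100a8 and had 1174 CPM of Fcnb and 26886 CPM of S100a8, although Camp was found in only 48 of its cells and was a corrected 0 in 51 of the others. Subcluster 8 was led by Retnlg and the metalloproteinase genes Mmp8 and Mmp9, all expressed late in neutrophil development, with 13560 CPM of Elane in the same cells.

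Subclusters 1, 3 and 5 (119, 96 and 72 cells) consisted mostly or wholly of cells with the larger monocyte sum, 118, 87 and 72 of them. Further such cells lay in subclusters 4, 6, 7 and 8 (7, 11, 22 and 2). Subcluster 1 was led by the chemokine gene Ccl3 and the stress-induced factor Atf3, with 502 CPM of Irf8, 1045 CPM of F13a1 and 1375 CPM of Hspa1a. Subcluster 5 had the lowest Hspa1a (46.8 CPM) with 276 CPM of Irf8 and 116 CPM of Cd34. Subcluster 3 held Lgals3 in 95 and Tgfbi in 92 of its 96 cells, genes of more mature monocytes and macrophages, and the lowest Mpo (2432 CPM). Its leading genes by fold, however, were H2-Eb1 and Cd74, antigen presentation genes found in only 8 and 17 cells.

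Subcluster 7 (49 cells) belonged to neither. The neutrophil sum was larger in 23 of its cells, the monocyte sum in 22, and 4 were equal. It had no UMI of Fcnb, S100a8 or Camp, although the table stored a corrected 0 for S100a8 in all 49 of its cells and for Camp in 42. It had the most Cd34 (208 CPM), Kit (145 CPM), Meis1 (109 CPM), Angpt1 (127 CPM), Myb (403 CPM) and Myc (205 CPM) of the 8, beside 4859 CPM of Mpo. Cpa3, carboxypeptidase A3 of mast cells and their progenitors, was at 198 CPM over all its cells, with a UMI in 22 of them. Its first gene by fold was Prg2, eosinophil major basic protein, at 1143 CPM, but the UMIs came from 3 cells, and Prg2 thus describes those cells and not the subcluster. All cells of subclusters 7 and 8 came from libraries 2, 5 and 6, the libraries with the most primary granule cells.

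**Figure D4:**
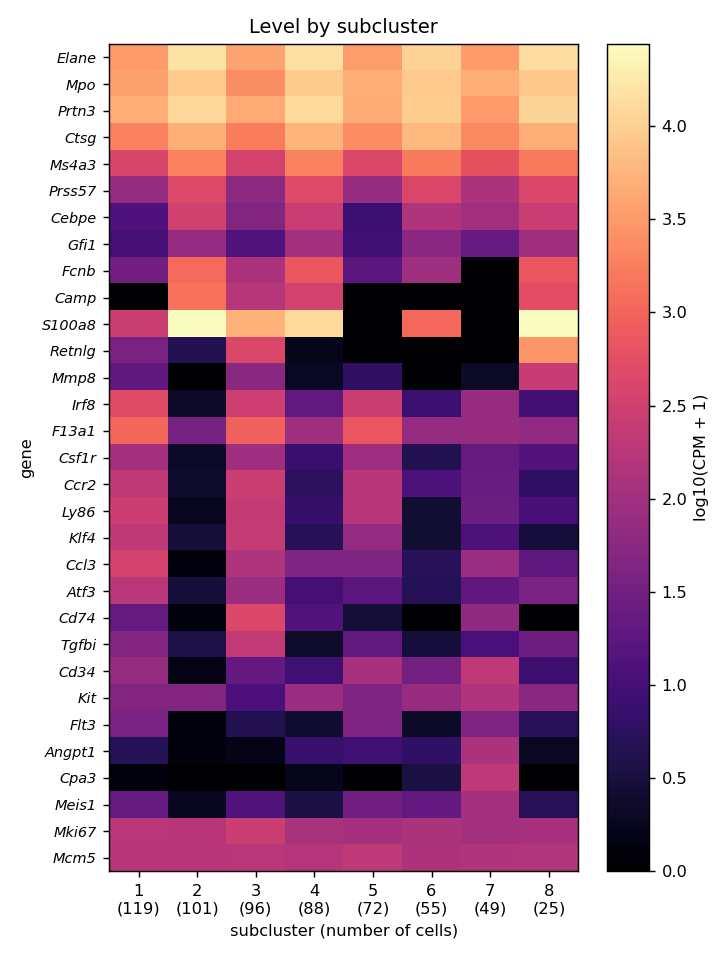
Level of 31 genes (rows) in the 8 subclusters of primary granule cells (columns, number of cells in parentheses), as log10 of CPM plus 1 by colour. Elane, Mpo, Prtn3 and Ctsg are bright in every column. Fcnb is bright in subclusters 2, 4 and 8, Irf8 and F13a1 in 1, 3 and 5, and Angpt1 and Cpa3 in 7, while Cd34 is bright in 1, 5 and 7.

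Many of the cells were in cycle by their transcripts. Mki67 or Top2a, genes of proliferating cells, had a UMI in 51.7% of the thinned cells (Wilson interval 47.7% to 55.6%), from 36.4% to 60.0% over the libraries. The share was 78.8% in the cells past both thresholds, 27.5% in stem and progenitor-type cells, 23.7% in secondary granule cells and 21.2% in monocyte-type cells. In T and B cell-type cells it was 16.7% and 18.8%. Some of those cells cycle themselves, so these are not pure background levels. Without thinning the share was 95.7%. It was 49.3% where the neutrophil sum was larger and 54.1% where the monocyte sum was larger, with intervals that overlapped.

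For the comparison with later neutrophil precursors, gene levels were set against those of the secondary granule cells within each of the 4 libraries with at least 20 cells of both (2, 4, 5 and 6). A gene was called where the levels, each with 5 CPM added, were at least 2-fold apart in the same direction in every such library. Of 8441 genes at 10 CPM or more in either population, 2562 were higher in primary granule cells (30.4%) and 655 lower (7.76%). Both populations had been picked by their granule genes, so these calls describe them and carry no p value. The median log2 ratio of all genes was 0.69, and S100a8 and S100a9 alone made up 129988 and 140790 CPM of the secondary granule cells. With scaling by the trimmed mean of M values (TMM) the median was -0.16 and the split turned to 800 higher and 1748 lower genes, so that the calls higher fell from 79.6% to 31.4% of all calls. Groups are therefore read against these values. A gene below 10 CPM in one population could enter only by being higher in the other, so counts are also given for genes at 10 CPM or more in both. Of 5859 such genes, 23.0% were higher and 7.49% lower. After TMM scaling the shares of all genes were 9.77% higher and 21.3% lower.

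Secondary granule, gelatinase and late neutrophil genes were lower in primary granule cells. Of the 14 gelatinase and late genes, 5 had entered only through the secondary granule cells. The 9 at 10 CPM or more in both populations were all lower, against 7.49% of such genes. S100a8 was at 8314 CPM in primary granule cells (5879, 10206 and 11865 in the lowest, median and highest library) and at 129988 CPM in secondary granule cells, and these ranges did not overlap. Of the 9 secondary granule genes outside the rule at that level in both, 7 were lower and none higher, among them Lcn2, an iron-binding protein gene (84.1 and 11441 CPM), and Chil3, a chitinase-like protein gene (197 and 3350 CPM). Of 6 subunits of the phagocyte NADPH oxidase, all at 10 CPM or more in both, 4 were lower. They include Cybb, its catalytic subunit (181 and 1596 CPM), and Cyba, which also belong to the secondary granule list and are counted there too. Fcnb was not called, at 361 and 375 CPM. This pooled level mixes unlike cells, since Fcnb had served to divide them. It was at 726 CPM where the neutrophil sum was larger and at 31.4 CPM where the monocyte sum was larger. Among azurophil genes outside the rule, 6 of 14 were higher, against 30.4% of all genes, and 4 of the 12 at 10 CPM or more in both populations, against 23.0%. The median log2 ratio of the 14 was 0.97 against 0.69. The higher genes included Cst7, a cathepsin inhibitor (239 and 2.11 CPM, 34.3-fold), and Nkg7 (655 and 19.2 CPM, 27.3-fold). Cst7 had entered only through the primary granule cells. Lyz2, which is made at all later stages, was lower, at 1053 CPM against 8931 CPM.

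Genes of protein production were higher. Of the 18 genes of ribosome biogenesis, 10 had entered only through the primary granule cells. The 8 at 10 CPM or more in both populations were all higher, against 23.0% of such genes, and 16 of the 18 were higher after TMM scaling, against 9.77% of all genes. Npm1, nucleophosmin, was at 1539 CPM against 102 CPM, 14.4-fold higher. Of 26 genes for protein folding and export in the endoplasmic reticulum, 23 were higher (13 after TMM scaling), among them 22 of the 25 at 10 CPM or more in both, led in level by Calr, calreticulin, with 1373 CPM against 104 CPM. Of 7 tested heme synthesis genes, 5 were higher (2 after TMM scaling), but 2 of the 7 were at 10 CPM or more in both, of which 1 was higher. This was Alas1, the rate-limiting enzyme of the pathway, at 277 CPM against 71.0 CPM. Myeloperoxidase is itself a heme protein.

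Most DNA replication genes were higher, and no mitosis gene was called. Of 24 S phase genes, 21 were higher (10 after TMM scaling), and 17 of the 20 at 10 CPM or more in both, against 23.0%, among them Mcm6, a subunit of the replicative helicase, at 6.93-fold. Of 24 genes of the G2 and M phases none was called in either direction, with a median log2 ratio of 0.36 that became -0.43 after TMM scaling, where 3 were lower. Of 14 tested transcription factors, 6 were higher, against 30.4% of all genes, and 3 of the 11 at 10 CPM or more in both, against 23.0%. After TMM scaling 4 of 13 were higher and 3 lower, against 9.77% and 21.3% of all genes. Myc (12.3-fold), Myb (8.41-fold), Gfi1 (5.15-fold) and Irf8 (6.84-fold) were among the 6. Myc and Gfi1 were at 2.18 and 4.33 CPM in secondary granule cells and had entered only through the primary granule cells. Irf8 was at 502, 290 and 276 CPM in subclusters 1, 3 and 5, but at 1.1, 19.3, 6.9 and 8.1 CPM in subclusters 2, 4, 6 and 8, below the 22.7 CPM of secondary granule cells. Cebpe was not called, at 133 CPM and 179 CPM. It too had served to divide the cells. Its level was 317, 264, 144 and 264 CPM in subclusters 2, 4, 6 and 8, but 11.7, 43.5 and 6.74 CPM in 1, 3 and 5. Among called genes outside the lists at 100 CPM or more, the 6 highest ratios were those of Gria3, a glutamate receptor subunit gene (31.5-fold), Phgdh, the first enzyme of serine synthesis (28.1-fold), Gstm1, a glutathione transferase (26.9-fold), BC035044 (23.0-fold), C1qbp, a mitochondrial matrix protein gene (21.3-fold), and Srm, spermidine synthase (21.0-fold). Of these, Gria3 was at 384 CPM where the monocyte sum was larger and at 86.3 CPM where the neutrophil sum was larger. In the same order, BC035044 was at 280 and 82.8 CPM, Phgdh at 201 and 147 CPM and Srm at 145 and 139 CPM. Gstm1 ran the other way, at 364 and 846 CPM. In secondary granule cells Gria3, Phgdh, BC035044, C1qbp and Srm were at 2.82, 1.45, 3.29, 6.45 and 2.08 CPM. These genes had entered only through the primary granule cells and could only be called higher. Their ratios depend on the 5 CPM added. The lowest ratio was that of the antibody gene Igkc (70.4-fold lower, from 2.33-fold to 245-fold over the libraries). The table stored a corrected 0 for Igkc in 163 of the primary granule cells, and the part of this correction was not tested. Next came Ifitm6 (57.6-fold lower) and Plbd1 (56.4-fold lower), and Cd177, a neutrophil surface protein gene, was 47.7-fold lower. Igkc and Plbd1, at 2.84 and 6.58 CPM in primary granule cells, had entered only through the secondary granule cells.

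For the comparison with earlier cells, 632 stem and progenitor-type cells had UMIs of at least 2 genes of a short stem cell set. The set included Meis1, Mecom, Hlf and Angpt1, and both granule sums of these cells were below their thresholds. Of 9397 genes, 277 were higher in primary granule cells (2.95%) and 955 lower (10.2%), with a median log2 ratio of -0.15. TMM scaling gave 506 and 653, so that calls higher made up 43.7% of all calls in place of 22.5%, and 5.42% of all genes were higher and 6.99% lower. Of 7585 genes at 10 CPM or more in both populations, 2.56% were higher and 6.61% lower. Among azurophil genes outside the rule, 9 of 14 were higher, all 14 at that level in both, and Alas1 was 11.1-fold higher. Of 9 secondary granule genes outside the rule, 6 were also higher and none lower. Among the 8 at that level in both, 5 were higher, against 2.56% of such genes. Mpo, Prtn3 and Ctsg were already found in the stem and progenitor-type cells at 301, 271 and 212 CPM, but Elane was at 16.5 CPM, below the level of 65.2 CPM in monocyte-type cells. Cebpe (0.959 CPM) and Fcnb (0.799 CPM) were near 0 in them and at 133 and 361 CPM in primary granule cells.

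Of 17 stem and progenitor genes tested, 12 were lower in primary granule cells, but several of these had been used to pick the comparison cells or had entered only through them. Of the 8 that had picked no cells and were at 10 CPM or more in both, 5 were lower, against 6.61% of such genes. Of these, Cd34 was at 52.3 CPM against 172 CPM, Sox4 at 84.2 against 346 CPM and Flt3, a receptor of lymphoid and dendritic progenitors, at 16.2 against 150 CPM. Kit, at 56.5 against 151 CPM, was not called. Prom1, the gene of the surface protein CD133, was the 1 gene of the list that was higher (46.9 against 0.400 CPM). It had entered only through the primary granule cells and could only be called higher. These pooled levels mix unlike cells. Cd34 was at 80.2 CPM where the monocyte sum was larger and at 19.6 CPM where the neutrophil sum was larger. In the same order Prom1 was at 8.20 and 89.9 CPM. Of 26 endoplasmic reticulum genes, all at 10 CPM or more in both, 11 were higher, against 2.56% of such genes (19 after TMM scaling, against 5.42%), whereas no gene of ribosome biogenesis or of the G2 and M phases was called (after TMM scaling, 2 of the latter were higher), and of the S phase genes only Rrm2 was (8 after TMM scaling). Among called genes outside the lists at 100 CPM or more, Dmkn had the highest ratio at 18.7-fold, and Gsr, glutathione reductase, was 11.9-fold higher. Dntt, the lymphoid DNA polymerase, was 41.4-fold lower and Ctla2a 51.2-fold lower. Dmkn was at 4.16 CPM in stem and progenitor-type cells and had entered only through the primary granule cells. Dntt, at 0.267 CPM in primary granule cells, had entered only through the stem and progenitor-type cells. The comparison population carried genes of other lineages. B cell genes summed to 876 CPM in it (39.7 CPM in primary granule cells), macrophage genes to 573 (102) and dendritic cell genes to 389 (85.5). Megakaryocyte genes summed to 365 CPM (10.0) and erythroid genes to 342 (0.80), while eosinophil genes ran the other way (8.71 and 102). Their part in the calls was not tested. Part of the population also carried fibroblast genes. Of the 632 cells, 63 had a UMI of Col1a1, Col1a2 or Dcn, and without them Sparc, Mt2, Serping1, Cxcl12 and Plpp3 were no longer called lower.

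For the comparison with the monocyte line, 6913 monocyte-type cells had UMIs of Ccr2 and F13a1, with both granule sums below their thresholds. This population also carried genes of other lineages. Macrophage genes summed to 4832 CPM in it (102 CPM in primary granule cells), dendritic cell genes to 2740 (85.5) and megakaryocyte genes to 404 (10.0). Eosinophil genes ran the other way (18.5 and 102). The part of these genes in the calls was not tested. Of 8778 genes, 596 were higher in primary granule cells (6.79%) and 1108 lower (12.6%), with a median log2 ratio of 0.09. Of 7019 genes at 10 CPM or more in both populations, 5.01% were higher and 10.0% lower, and TMM scaling gave 455 higher (5.19% of all genes) and 1265 lower (14.4%). Of 12 monocyte genes other than the 2 of the gate, 10 were lower and none higher, and all 12 were at that level in both. Csf1r was at 49.0 CPM against 315 CPM, Klf4 at 87.9 against 583 CPM and Lyz2 at 1053 against 11882 CPM. Irf8, however, was at 184 CPM against 147 CPM and was not called, and Ly6c2 was at 2144 against 1356 CPM, also not called. The pooled levels of Irf8 and Csf1r mix unlike cells, since both genes had served to divide them. Irf8 was high in subclusters with mostly larger monocyte sums and low in those with mostly larger neutrophil sums. Of 14 azurophil genes outside the rule, 8 were higher and 2 lower. Among the 10 at 10 CPM or more in both, 4 were higher and 2 lower, against 5.01% and 10.0%. Of 15 receptors for colony-stimulating factors, chemokines and adhesion, leaving out Ccr2 of the gate, 7 were lower and none higher (6 of the 14 at that level in both, against 10.0%), including Cd44 (363 against 1859 CPM). Cxcr4, which holds precursors in the marrow, was at 75.7 against 203 CPM and was not called.

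Among the genes outside the lists with the lowest ratios against monocyte-type cells were Cd74, the invariant chain of class II molecules, at 78.4 against 3318 CPM, and H2-Eb1, a class II gene, at 21.3 against 1051 CPM. Of 24 S phase genes 18 were higher (15 after TMM scaling) and of 18 ribosome biogenesis genes 11 (10 after TMM scaling), against 6.79% of all genes (5.19% after TMM scaling). At 10 CPM or more in both populations they were 17 of 23 and 10 of 16, against 5.01%. Outside the lists, the adhesion molecule gene Vcam1 was 12.5-fold higher, Phgdh 12.1-fold and Srm 7.94-fold. Vcam1 and Phgdh were at 3.55 and 9.93 CPM in monocyte-type cells and had entered only through the primary granule cells. The 3 comparisons use the same primary granule cells and are not independent of each other.

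**Figure D5:**
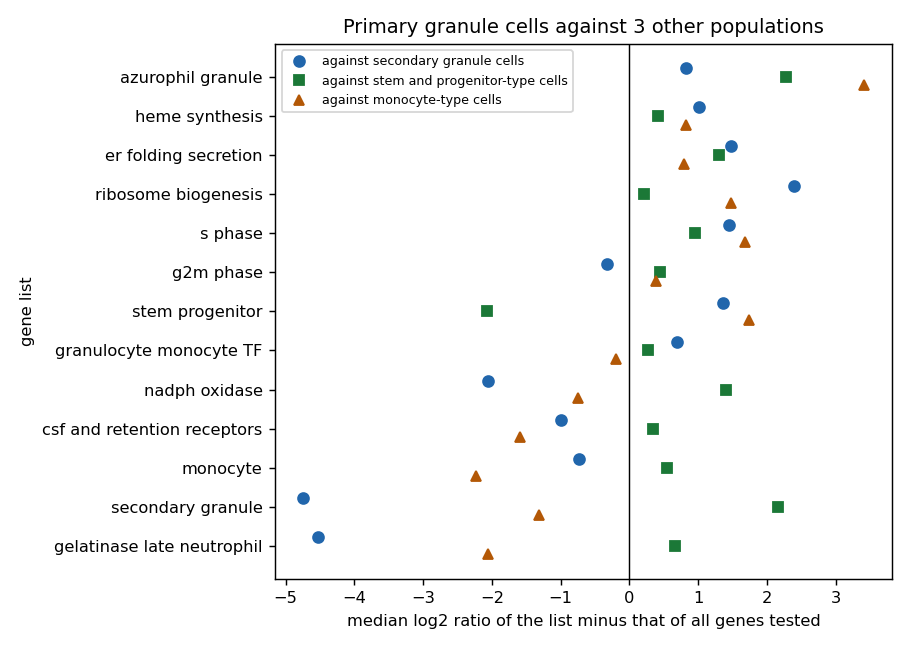
Median log2 ratio of each gene list in primary granule cells against 3 other populations (symbols), minus the median of all genes tested in that comparison. The line at 0 is the level of all genes. Secondary granule and gelatinase genes lie lowest against secondary granule cells, and ribosome biogenesis lies high against secondary granule cells but near 0 against stem and progenitor-type cells. The azurophil, secondary granule, stem, monocyte and receptor lists contain genes used to pick the cells.

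Markers of other lineages were low in the primary granule cells but not absent. The 8 T cell genes summed to 7.15 CPM (Cd28 highest at 3.33 CPM), against 3071 CPM in T cell-type cells. The 8 B cell genes summed to 39.7 CPM (Cd79b highest), against 12177 CPM in B cell-type cells. The 8 macrophage genes summed to 102 CPM, from 22.5 to 131 CPM over the libraries, with Apoe highest at 32.9 CPM. The 8 erythroid genes summed to 0.80 CPM, with Hba-a1 and Epor at 0, and the 6 fibroblast genes to 0.311 CPM, with Col1a2, Dcn and Lum at 0. The 6 megakaryocyte genes summed to 10.0 CPM with Gp1bb at 0, and the 8 dendritic cell genes to 85.5 CPM, led by H2-Ab1. Of the 8 basophil and mast cell genes, Hdc, histidine decarboxylase, made up 175 of 216 CPM and Mcpt4 was at 0. Hdc is also expressed in neutrophils and was at 898 CPM in secondary granule cells. The 6 eosinophil genes summed to 102 CPM, of which Prg2 gave 88.1 CPM, with 471 CPM for the list in library 2, and Ccr3 was at 0.

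By cell, 3 of the 605 had UMIs of at least 2 of Cd3e, Cd3d and Cd3g, 9 had both Cd79a and Cd79b, and 7 had at least 2 of the C1q genes of macrophages. A UMI of both Ccr2 and F13a1, the monocyte gate, was found in 307 cells. Of the barcodes, 138 occurred in more than 1 library, 5 of these belonged to primary granule cells, and no barcode was shared between primary granule cells of different libraries. The part of any remaining doublets in these values was not tested.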

How the data were processed

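CD45+ synovial cells of 6 samples were sequenced with a 3′ single-cell kit. The authors aligned reads to mm10 with Cell Ranger 7, corrected ambient RNA with SoupX, removed doublets with DoubletFinder, filtered cells in Seurat, and deposited 1 pooled table of whole UMI counts, not scaled for depth. Cells had 501 to 6998 genes and at most 9.99% mitochondrial UMIs, and libraries had 47273569 to 123367661 UMIs. No doublet caller was run here. Samples were grouped from their labels, but barcode numbers 1 to 6 could not be tied to them, so the planned edgeR test of PBS against PEPITEM was not run and no p values are given.

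The members and gene lists were chosen with earlier results of these data known. A further gene of the set that picked stem and progenitor-type cells is not reported here. UMIs were summed by library and population and scaled to 1000000 (CPM). Genes were named from fixed lists, or as the 10 highest and 10 lowest pooled ratios among called genes at 100 CPM or more outside them, leaving out ribosomal, mitochondrial, Gm and Rik genes. Other names (the genes dividing the cells, and genes further down in subclusters) were chosen after values were seen. Subclusters used Leiden clustering (resolution 0.5, 1000 variable genes, 20 components). Shares have Wilson 95% and levels exact Poisson intervals, for counting error only. Alternatives are in the closing section. The procedure was tested on simulated data. Software was Python 3.11.15, numpy 2.4.6, scipy 1.17.1, scanpy 1.11.5, igraph 0.11.9, matplotlib 3.10.9, R 4.3.3 and edgeR 4.0.16 (TMM factors). Gene positions were from GENCODE on GRCm38.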

Additional observations from a re-analysis of the deposited data

How the results depend on the processing

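Of 117 counts and shares recomputed under alternatives, 91 stayed within their spread or within 1.5 times and 26 moved. The share of primary granule cells (1.84%) was 2.49% with a primary threshold of 0.25%, 1.34% with 1%, 1.05% as the median over libraries, and 1.48% to 1.99% without 1 library each. Thinning to 3000 UMIs before the rule gave 622 cells, 586 of them shared. With 20 CPM added, 1226 genes were higher and 429 lower than in secondary granule cells, 163 and 427 against stem and progenitor-type cells, and 247 and 687 against monocyte-type cells. With a minimum of 50 CPM, 1302 were higher against secondary granule cells, 559 lower against stem and progenitor-type cells and 348 higher against monocyte-type cells. With 10 CPM in both populations, 1346 were higher against secondary granule cells, 501 lower against stem and progenitor-type cells, and 352 higher and 702 lower against monocyte-type cells, since fewer genes were tested. TMM scaling turned the split against secondary granule cells, from more genes higher to more lower (800 and 1748), and gave 506 higher against stem and progenitor-type cells. Without 1 library each, the calls were 2598 to 2770 higher and 675 to 693 lower, 287 to 346 and 1049 to 1143, and 623 to 692 and 1136 to 1192 in the 3 comparisons. The share with Mki67 or Top2a was 95.7% without thinning, 65.2% at 5000 UMIs and 51.1% to 52.1% without 1 library each. Cells with the larger neutrophil sum made up 38.4% after thinning and 44.9% to 49.7% without 1 library each. A resolution of 0.3 gave 4 subclusters. Of 800 values of 60 named gene results under alternatives, 785 kept their call and 15 lost it, 7 of them with 20 CPM added and 5 without the cells with fibroblast genes. The alternatives on 10 CPM in both populations, libraries with 10 cells or more, fibroblast genes, Ctsg and Ms4a3, and the dividing genes were chosen after seeing the data. The cause of the other shifts was not tested. No paired analysis was possible because the barcode libraries could not be tied to the sample labels, and the alternatives planned for PBS against PEPITEM (other normalization, DESeq2, replicate block) were not run for the same reason.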
